A study of Homo sapiens with 6 samples.

Results

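Chemokine transcripts were examined in 143B cells, a human osteosarcoma cell line, with and without deletion of CNTNAP4. The 10 genes were chosen by symbol: the CXC ligands CXCL1, CXCL2, CXCL3, CXCL5, CXCL6, CXCL8 and CXCL12, the CC ligands CCL2 and CCL20, and ACKR3, an atypical receptor of CXCL12. All 10 are among the 54308 genes that the deposited table lists. The vector control (VC) group was 143B cells given the vector plasmid, and the knockout (KO) group was 143B cells with CRISPR/Cas9 deletion of CNTNAP4, with 3 libraries in each group. Both groups were transfected with a plasmid. Per the labels RNA was taken 48 h after transfection, whereas the methods describe clonal cells grown from sorted single cells, with 2 KO colonies expanded. Which colony gave which library is not stated in the sources used here, and the effect of the deletion and differences between colonies cannot be told apart. The methods describe 3 independent RNA samples, so the p-values measure the spread between these preparations.

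Chemokines are small secreted proteins that steer cell movement through receptors coupled to G proteins. The CXC ligands CXCL1, CXCL2, CXCL3, CXCL5, CXCL6 and CXCL8 are of the ELR type and signal through CXCR2 (CXCL6 and CXCL8 also through CXCR1). They are known for attracting neutrophils and for stimulating endothelial cells. CCL2 attracts monocytes through CCR2, CCL20 attracts lymphocytes and dendritic cells through CCR6, and CXCL12 retains and guides cells through CXCR4. ACKR3 binds CXCL12 and removes it from the surroundings without activating G proteins. Transcription of the inflammatory members is classically driven by NF-kB together with AP-1 and C/EBP factors, and their mRNAs are short-lived.

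The values are log2 signals that the authors had quantile-normalized between libraries, which gave every library the range -10.87 to 12.04 and a median of 0.62. Between 20333 and 21041 genes had a value in a library, and an empty cell marks a gene without one. The linear unit and the number of reads behind each value are unknown, so no counting error can be given and the levels of the chemokine genes are not compared with each other. CNTNAP4 itself had a log2 signal of -7.18 in VC replicate 3 and no value in the other 5 libraries, so the table does not check the deletion. A gene entered the comparison when both groups had 2 or more values, as 19306 genes did, and it was called when limma's test gave a Benjamini-Hochberg adjusted p under 0.05. By that rule 32.9% of the tested genes were called, 13.1% higher and 19.8% lower in KO, and the median log2 fold change (KO minus VC) of all tested genes was -0.13. In bulk RNA, more cells that express a gene and more of its RNA per cell cannot be told apart.

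The 6 ELR-type CXC genes chosen here lie within 1 cluster on chromosome 4, and their promoters are shown because they share a short run of letters. Sequences are from RefSeq (GRCh38.p14), 5′ to 3′ on the gene's own strand, and cover the 150 bases before the RefSeq start. Capitals mark the longest run of letters common to all 6 promoters, which was found by comparing them over the 300 bases that the RefSeq table holds for each gene.
CXCL8: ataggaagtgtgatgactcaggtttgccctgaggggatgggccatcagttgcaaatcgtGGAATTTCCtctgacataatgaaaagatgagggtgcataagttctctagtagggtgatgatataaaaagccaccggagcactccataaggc
CXCL1: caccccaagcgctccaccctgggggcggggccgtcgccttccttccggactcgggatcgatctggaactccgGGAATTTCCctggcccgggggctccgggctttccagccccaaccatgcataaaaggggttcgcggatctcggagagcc
CXCL3: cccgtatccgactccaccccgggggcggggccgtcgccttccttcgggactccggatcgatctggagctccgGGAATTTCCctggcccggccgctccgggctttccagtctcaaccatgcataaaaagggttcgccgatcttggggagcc
CXCL2: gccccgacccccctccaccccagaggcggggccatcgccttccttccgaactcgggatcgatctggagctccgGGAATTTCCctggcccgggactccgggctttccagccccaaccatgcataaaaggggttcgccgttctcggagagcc
CXCL5: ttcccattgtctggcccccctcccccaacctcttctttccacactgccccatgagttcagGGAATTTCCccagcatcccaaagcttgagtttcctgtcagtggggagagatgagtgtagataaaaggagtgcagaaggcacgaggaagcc
CXCL6: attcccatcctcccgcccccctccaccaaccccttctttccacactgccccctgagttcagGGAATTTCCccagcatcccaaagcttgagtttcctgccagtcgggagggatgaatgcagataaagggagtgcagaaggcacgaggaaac
These stretches are chr4:73740419-73740568 (plus strand) for CXCL8, chr4:73869243-73869392 (plus) for CXCL1, chr4:74038690-74038839 (minus) for CXCL3, chr4:74099196-74099345 (minus) for CXCL2, chr4:73998678-73998827 (minus) for CXCL5 and chr4:73836528-73836677 (plus) for CXCL6. In all but CXCL1, the GENCODE gene begins upstream of the RefSeq start used here.

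The shared run, GGAATTTCC, is 9 bases long and was the only one of that length in all 6 promoters. It began 91 bases before the start of CXCL8, 78 bases before CXCL1 and CXCL3, 77 before CXCL2, 90 before CXCL5 and 89 before CXCL6. On either strand it occurred in 162 of the 35116 promoters in the table (0.461%). The NF-kB consensus, which overlaps this run where both occur, was found in the promoters of CXCL1, CXCL2, CXCL3, CXCL5, CXCL6 and CCL20 and in 5.91% of all promoters. As searched, that consensus starts with GGG, or ends with CCC on the other strand. In CXCL8 the run has a T on both sides, so its letters did not match. A mismatch to this pattern does not show that CXCL8 lacks an NF-kB site. The AP-1 motif TGANTCA was found in CXCL8 alone among the 8 member promoters in the table, 137 bases before the start, and in 7.71% of all promoters. TATAAA was found 31 bases before the start of CXCL8 and 29 before that of CCL20, and in 11.5% of all promoters. Both strands were searched for each motif. The run also occurred in promoters of genes that were not called higher in KO. Of 76 tested genes outside the 10 whose promoters hold it, 18 (23.7%) were called higher and 12 (15.8%) lower. Their median log2 fold change was 0.0073. Over 13437 tested genes with any promoter in the table, 14.1% were called higher and 20.4% lower, with a median of -0.11. The sets were not tested against each other. Identity was taken over the 250 bases before the start only. The promoters of CXCL1 and CXCL3 were 81.4% identical, those of CXCL2 and CXCL3 73.4% and those of CXCL1 and CXCL2 70.1%. Those of CXCL5 and CXCL6 were 85.3% identical, whereas CXCL8 was 44.3% to 48.1% identical to the other 5.

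CXCL8, CXCL3 and CXCL1 rose in KO cells, by 6.25-fold, 4.50-fold and 2.95-fold, and CXCL2 had a 2.85-fold ratio that did not pass the test. These neutrophil attractants had values in all 6 libraries, and for each of them every KO library lay above every VC library. That pattern, with no overlap and KO above VC, was seen in 22.6% of the 17698 genes with 6 values. A rise of at least 2-fold with an adjusted p under 0.05 was seen in 4.1% of tested genes.

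CXCL8 (chr4:73740506-73743716, plus strand), the best known neutrophil attractant of the family, had log2 signals of 1.96, 2.03 and 1.86 in VC replicates 1, 2 and 3 and of 4.93, 5.10 and 3.75 in KO replicates 1, 2 and 3. The VC values lay close together, and KO replicate 3 was the lowest of the KO values while still 1.72 above the highest VC value. The VC mean was 1.95 ± 0.084 and the KO mean 4.59 ± 0.74 (SD, n = 3 each). The log2 fold change was 2.64 (SE 0.37, 95% confidence interval 1.70 to 3.59, limma adjusted p = 0.0117). Among the genes with a value in the same library, CXCL8 stood at percentiles 61.8, 62.5 and 60.8 in VC replicates 1, 2 and 3 and at 91.2, 92.2 and 81.3 in KO replicates 1, 2 and 3.

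CXCL3 (chr4:74036589-74038807, minus strand) encodes a close relative of CXCL1 and CXCL2. Its log2 signals were -0.79, -0.94 and -1.21 in VC and 1.53, 1.38 and 0.66 in KO. The groups were separated by 1.45 and KO replicate 3 was again the lowest KO library. The log2 fold change was 2.17 (SE 0.26, 95% confidence interval 1.51 to 2.83, limma adjusted p = 0.00963), from -0.98 ± 0.21 to 1.19 ± 0.46 (SD, n = 3 each).

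CXCL1 (chr4:73869393-73871242, plus strand), first described as a growth-stimulating activity of melanoma cells, had log2 signals of 0.91, 1.12 and 1.25 in VC and of 3.02, 2.79 and 2.14 in KO. The gap between the groups was 0.89, with KO replicate 3 lowest among the KO values. From 1.09 ± 0.17 in VC to 2.65 ± 0.46 in KO (SD, n = 3 each), the log2 fold change was 1.56 (SE 0.25, 95% confidence interval 0.92 to 2.19, limma adjusted p = 0.0148). Without VC replicate 1 or VC replicate 3 the adjusted p was 0.0550 and 0.0515.

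CXCL2 (chr4:74097035-74099293, minus strand), also a ligand of CXCR2, had the narrowest gap between the groups among the 4 genes. Its log2 signals were -2.35, -1.70 and -1.33 in VC and 0.12, 0.14 and -1.10 in KO, so KO replicate 3 lay only 0.22 above the highest VC value. The means were -1.79 ± 0.52 and -0.28 ± 0.71 (SD, n = 3 each). The log2 fold change of 1.51 (SE 0.44, 95% confidence interval 0.39 to 2.63) had an unadjusted p of 0.0171 and an adjusted p of 0.0512 by limma. Without KO replicate 3 the log2 fold change was 1.92 and the adjusted p 0.0422.

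The transcripts of CXCL1, CXCL2 and CXCL3 share some sequence, which bears on how reads are assigned among them. Of all 50-base windows in the GENCODE 29 transcripts, 4.81% of those of CXCL1, 12.5% of those of CXCL2 and 6.01% of those of CXCL3 occurred in another of the 3 genes. For CXCL8, CCL2, CCL7 and ACKR3 no 50-base window occurred in a transcript of another gene. How reads with several possible origins were counted is not given in the sources used here, so the split among CXCL1, CXCL2 and CXCL3 is less certain than the value of CXCL8.

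**Figure D1:**
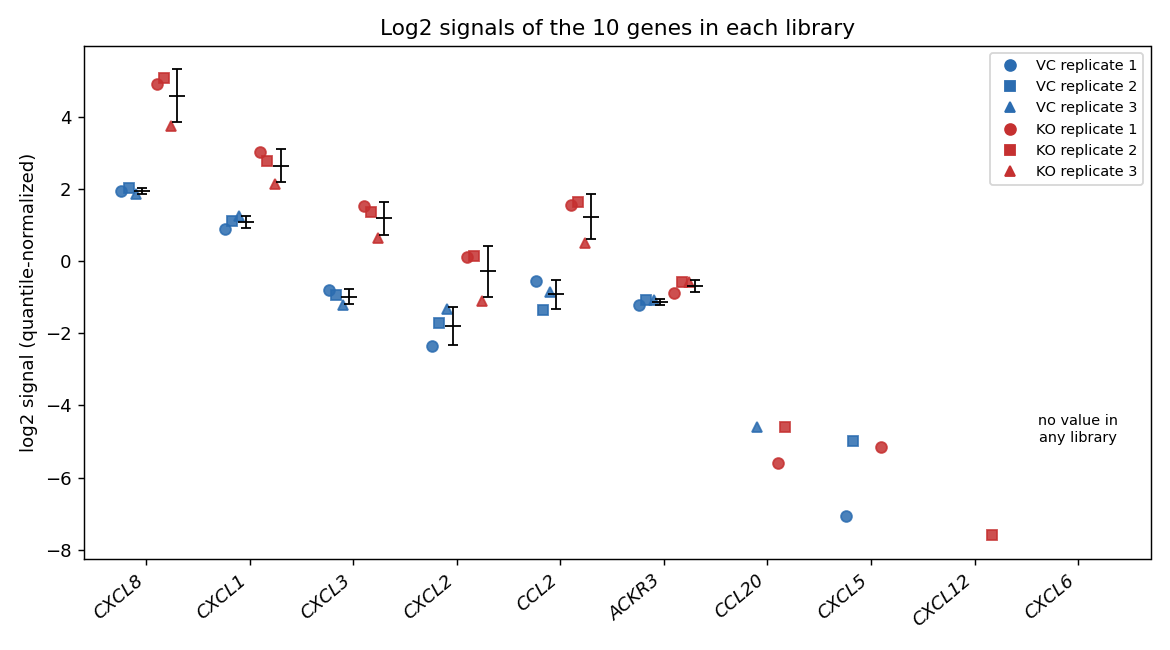
Log2 signal (quantile-normalized, vertical axis) of each of the 10 genes in the 3 VC libraries (blue) and 3 KO libraries (red), with the marker shape giving the replicate number and the black bars the mean ± SD where a group has 3 values. The KO points of CXCL8, at 3.75 to 5.10, CXCL1, CXCL3, CXCL2, CCL2 and ACKR3 sit above their VC points, CCL20, CXCL5 and CXCL12 have 1 to 3 low values, and CXCL6 has none.

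The other 2 ELR-type ligands chosen here had few or no values. CXCL5 (chr4:73995642-73998779, minus strand) had log2 signals of -7.07 in VC replicate 1, -4.98 in VC replicate 2 and -5.15 in KO replicate 1, and no value in the other 3 libraries. CXCL6 (chr4:73836497-73849064, plus strand) had no value in any library. Neither could be tested. Their promoters are the most alike of the 6, and both hold the shared run shown above, at nearly the same distance from the start.

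The genes with a value in every library were not all neighbours in the cluster. It spans 358.788 kb from CXCL8 to CXCL2 and holds 9 protein-coding genes in GENCODE 29. CXCL8, CXCL1, CXCL3 and CXCL2 had a value in every library. CXCL6, without any value, and PF4V1, with some, lie between CXCL8 and CXCL1. PF4 and PPBP, without any, and CXCL5, with some, lie between CXCL1 and CXCL3, and CXCL3 and CXCL2 are adjacent. PF4V1, which encodes a platelet-factor variant, had values of -5.33 and -4.26 in VC replicates 1 and 2 and none in KO.

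**Figure D2:**
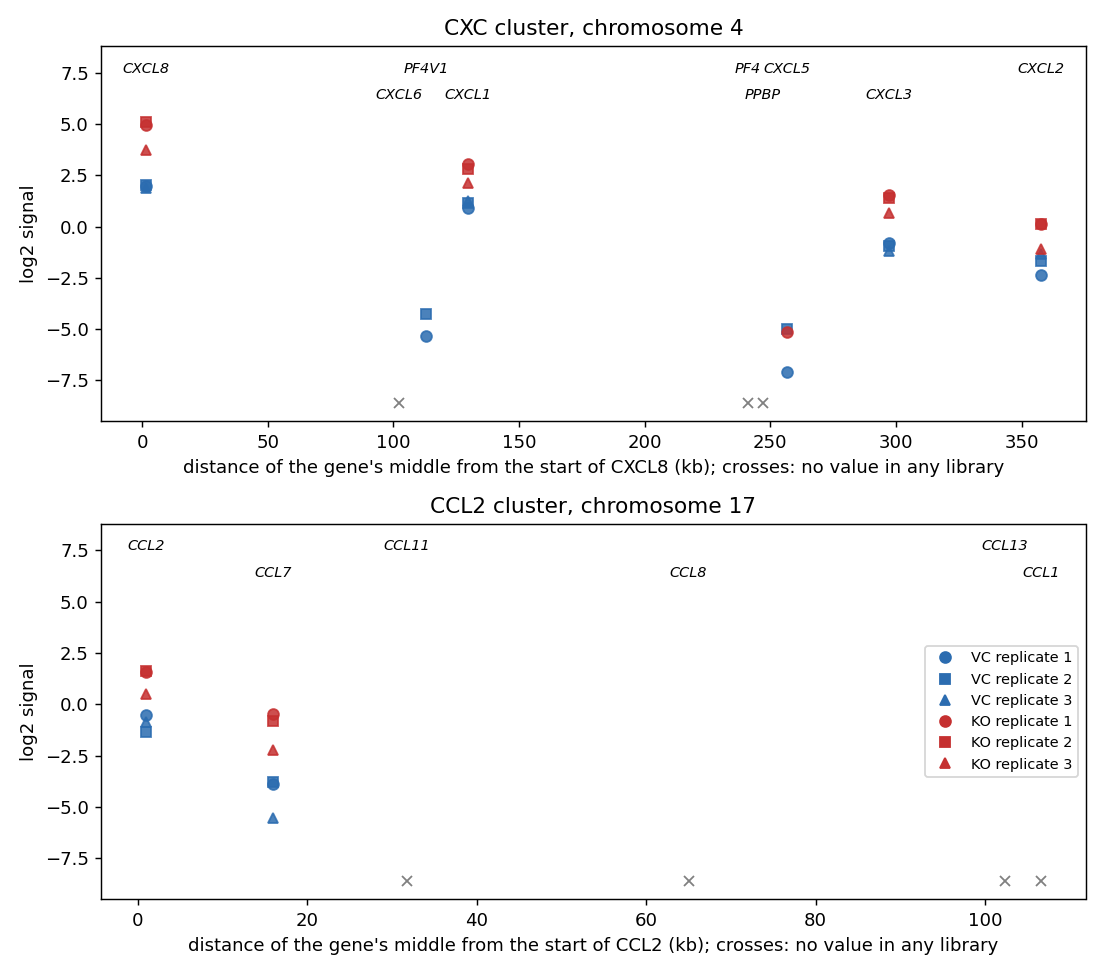
Log2 signal in each library (vertical axis) against the distance in kb of each gene's middle from the start of the first gene, for the CXC cluster on chromosome 4 (top) and the CC cluster around CCL2 on chromosome 17 (bottom), VC in blue and KO in red, with grey crosses for genes without a value. In the CXC cluster 4 genes have values in every library and 5 have few or none, with CXCL3 and CXCL2 next to each other at the far end, and in the CC cluster only CCL2 and CCL7 have values.

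CCL2, the main monocyte attractant, rose 4.46-fold in KO cells. CCL2 (chr17:34255218-34257203, plus strand) had log2 signals of -0.55, -1.35 and -0.86 in VC and of 1.56, 1.64 and 0.51 in KO. KO replicate 3 was the lowest KO value and lay 1.05 above the highest VC value, so the groups did not overlap. The means were -0.92 ± 0.41 and 1.24 ± 0.63 (SD, n = 3 each), a log2 fold change of 2.16 (SE 0.38, 95% confidence interval 1.20 to 3.11, limma adjusted p = 0.0165). Without VC replicate 2 or VC replicate 3 the adjusted p was 0.0515 and 0.0590.

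CCL7 (chr17:34270221-34272242, plus strand), the next gene along the chromosome and also a monocyte attractant, was higher in KO too. Its log2 signals were -3.86, -3.78 and -5.53 in VC and -0.46, -0.80 and -2.21 in KO, with replicate 3 lowest in each group and no overlap. The log2 fold change was 3.23 (SE 0.68, 95% confidence interval 1.53 to 4.93, limma adjusted p = 0.0241). After 1 was added to each linear signal, its log2 fold change was 0.50, and without variance moderation the adjusted p was 0.0554. Without VC replicates 1, 2 and 3 and without KO replicate 2 the adjusted p was 0.0614, 0.0543, 0.0597 and 0.0627. The 4 further CC genes of this 108.014 kb stretch, CCL11, CCL8, CCL13 and CCL1, had no value in any library.

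CCL20 (chr2:227805739-227817564, plus strand), the ligand of CCR6, had a log2 signal of -4.60 in VC replicate 3, -5.58 in KO replicate 1 and -4.58 in KO replicate 2, and none in the other 3 libraries. With a single VC value the groups cannot be compared, and CCL20 was not tested.

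CXCL12 was nearly undetected, whereas its atypical receptor ACKR3 was measured in every library. CXCL12 (chr10:44370165-44386493, minus strand) had a log2 signal of -7.60 in KO replicate 2 alone. ACKR3 (chr2:236567787-236582358, plus strand) had log2 signals of -1.22, -1.07 and -1.06 in VC and of -0.87, -0.58 and -0.58 in KO. KO replicate 1 was the lowest KO value here, 0.20 above the highest VC value, and the groups did not overlap. The means were -1.12 ± 0.088 and -0.68 ± 0.16 (SD, n = 3 each), and the log2 fold change was 0.44 (SE 0.11, 95% confidence interval 0.16 to 0.72, limma adjusted p = 0.0350), a 1.36-fold ratio. The call depended on the libraries used: without VC replicates 1, 2 and 3 the adjusted p was 0.107, 0.0800 and 0.0896, and without KO replicates 2 and 3 it was 0.0812 and 0.100. CXCR4, the signalling receptor of CXCL12, chosen after its values were seen, had 0.62 ± 0.053 in VC and 0.70 ± 0.23 in KO (SD, n = 3 each), with a log2 fold change of 0.08 (95% confidence interval -0.25 to 0.41).

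In all, 6 of the 10 genes could be tested, 5 of them were called higher in KO (CXCL8, CXCL3, CCL2, CXCL1 and ACKR3), and all 6 had a positive log2 fold change, with a median of 1.86. All 6 had values in every library, so none entered the test through 1 group alone. Against this, 13.1% of all tested genes were called higher. The 10 genes were chosen with earlier results of these data known, so this count is not independent support for a direction. The confidence intervals of the 4 ELR-type ligands and CCL2 overlap each other, while that of ACKR3 ends below those of CXCL8, CXCL3, CCL2 and CXCL1. Differences between the genes' fold changes were not tested. After 1 was added to each linear signal, the log2 fold changes were 1.13 for CXCL3, 1.15 for CCL2, 0.52 for CXCL2 and 0.16 for ACKR3, and the same 5 genes were called.

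Few of the other chemokine ligands had enough values to compare. Of 39 other ligand genes, 37 were listed in the table, 21 of these had no value in any library, and 7 had enough values to be tested. CCL7 was called higher and CCL28 lower. Over all tested genes 13.1% were called higher and 19.8% lower, so 1 of 7 in each direction is close to the background. CCL28, a ligand made mainly by mucosal epithelium, had log2 signals of 0.15, 0.08 and 0.14 in VC and of -0.17, -0.06 and -0.26 in KO, a log2 fold change of -0.28 (SE 0.080, limma adjusted p = 0.0467). With KO replicate 2 left out CCL28 was still called, and with each of the other libraries left out its adjusted p was 0.0600 to 0.139. The median of the 7 tested ligands was 0.26, and over those with 6 values it was -0.28. CXCL10, an interferon-induced ligand, had 1 value in VC (-5.94) and 3 in KO (-4.51, -5.08 and -6.07) and could not be tested.

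Of the receptors that these ligands use, CXCR2, CXCR1 and CCR2 had few and low values in these cells. CXCR2, the receptor of CXCL1, CXCL2, CXCL3, CXCL5, CXCL6 and CXCL8, had log2 signals of -6.42, -6.41 and -6.41 in KO and no value in VC. CXCR1 had -7.15 in VC replicate 3 and -6.14 in KO replicate 3, and CCR2, the receptor of CCL2, had -7.75 and -7.85 in VC replicates 2 and 3 and none in KO. Each of these values was low in the table's range, and none of the 3 genes could be tested. CCR6, the receptor of CCL20, named after its values were seen, had -4.65, -3.98 and -4.73 in VC, -5.72 in KO replicate 1 and -7.69 in KO replicate 3. Its log2 fold change of -2.26 (SE 0.66, 95% confidence interval -4.04 to -0.47) had an unadjusted p of 0.0237 and an adjusted p of 0.0626 by limma, with no value in KO replicate 2.

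Of 23 other receptor genes, 5 had no value in any library and 8 were tested, with a median log2 fold change of 0.21. CCRL2, an atypical receptor that presents the attractant chemerin rather than chemokines, was the 1 gene called, and it was higher in KO. A count of 1 in 8 is close to the 13.1% of all tested genes that were called higher. Its log2 signals were -4.67, -5.62 and -4.18 in VC and -2.27, -2.22 and -2.21 in KO, a log2 fold change of 2.59 (SE 0.37, 95% confidence interval 1.66 to 3.52, limma adjusted p = 0.0120). With 1 added to the linear signal, which shrinks the change of low genes, the log2 fold change was 0.22. The KO values lay within 0.06 of each other, far closer than the VC values.

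**Figure D3:**
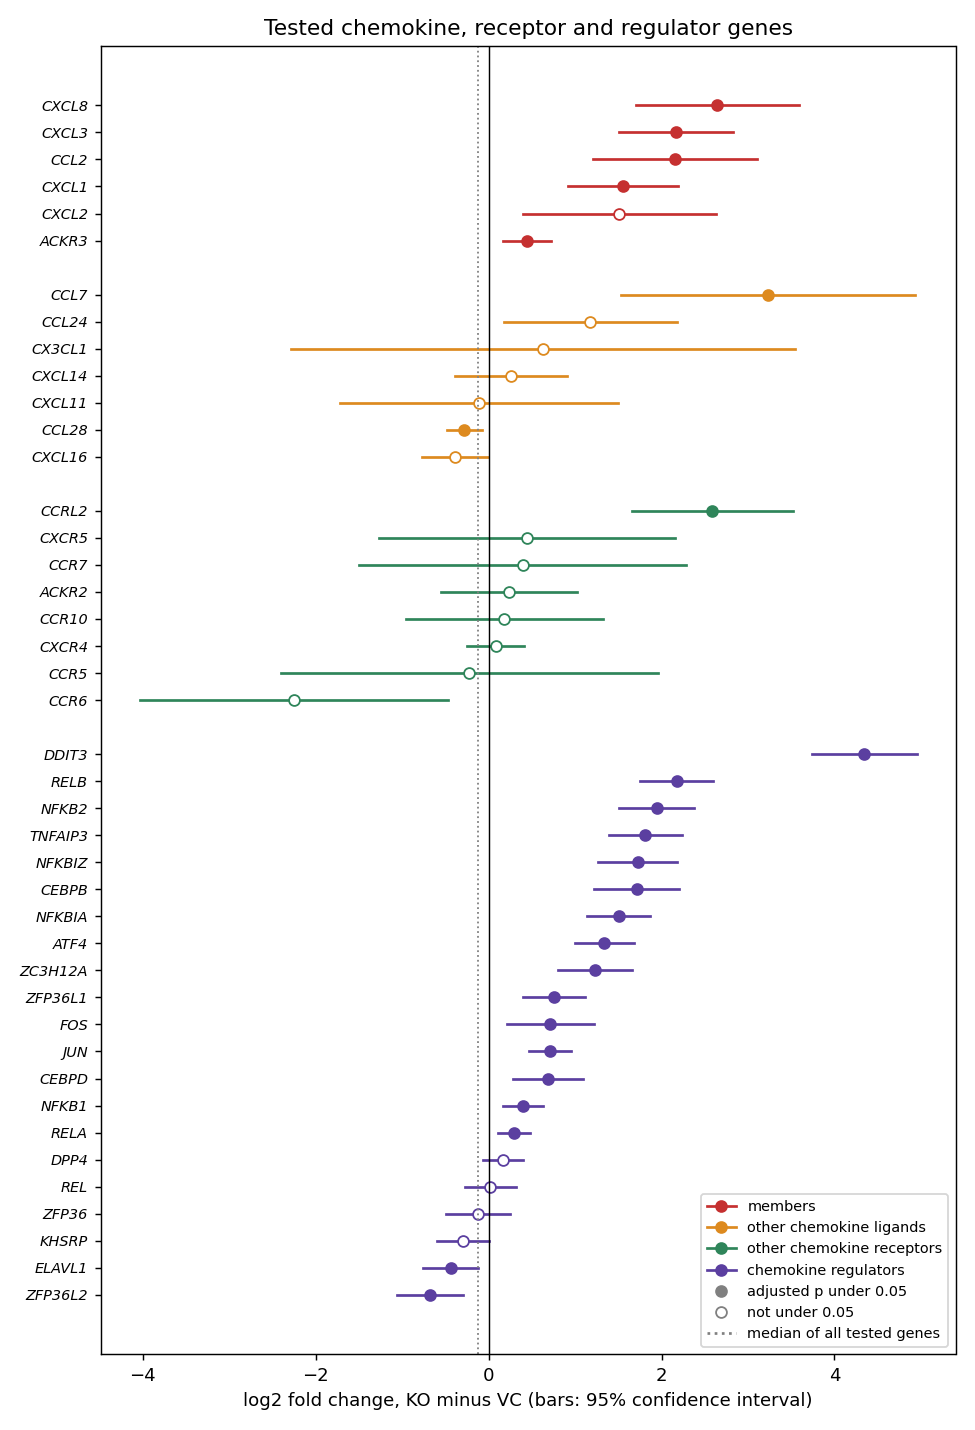
Log2 fold change (KO minus VC, horizontal axis) with its 95% confidence interval for each tested gene among the 10 chemokine genes (red), other ligands (orange), other receptors (green) and regulators (purple), with filled points for an adjusted p under 0.05. CXCL8, CXCL3, CCL2 and CXCL1 lie between 1.56 and 2.64, 3 of the 7 other ligands and 6 of the 8 other receptors have intervals that span 0, and the dotted line marks the median of all tested genes at -0.13.

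Genes that regulate chemokines, nearly all of them through transcription or mRNA decay, were followed as a list of 21 that all had 6 values. Of these, 15 were called higher and 2 lower, with a median log2 fold change of 0.72, beside 13.1% higher and 19.8% lower among all tested genes. The list was chosen with results of these data known and is not independent support for a direction.

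Among NF-kB subunits, the partners of the non-canonical arm stood out in size. RELB had log2 signals of 1.996, 1.696 and 1.914 in VC and 3.88, 4.36 and 3.88 in KO, a log2 fold change of 2.17 (SE 0.17, limma adjusted p = 0.00597). NFKB2 rose from 2.256, 2.004 and 2.180 to 3.99, 4.42 and 3.86, with a log2 fold change of 1.94 (SE 0.17, adjusted p = 0.00705). The canonical subunits NFKB1 and RELA had smaller log2 fold changes of 0.40 (SE 0.093, adjusted p = 0.0303) and 0.30 (SE 0.073, adjusted p = 0.0335). The confidence intervals of RELB (1.75 to 2.60) and NFKB2 (1.51 to 2.38) lie above those of NFKB1 (0.16 to 0.63) and RELA (0.11 to 0.48), while the difference was not tested.

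The NF-kB feedback inhibitors TNFAIP3 and NFKBIA and the cofactor NFKBIZ, which are themselves NF-kB target genes, were also higher. TNFAIP3, an ubiquitin-editing enzyme that limits NF-kB signalling, had log2 signals of -1.16, -1.12 and -0.97 in VC and of 0.89, 0.92 and 0.39 in KO, with a log2 fold change of 1.81 (SE 0.17, limma adjusted p = 0.00782), or 0.86 with 1 added to the linear signal. NFKBIA, which holds NF-kB in the cytoplasm, had 3.97, 3.84 and 3.99 in VC and 5.40, 5.71 and 5.21 in KO, a rise of 1.51 on the log2 scale (adjusted p = 0.00789). NFKBIZ, a nuclear cofactor for a subset of NF-kB targets, rose by 1.73 on the log2 scale (adjusted p = 0.00847). The groups of these 3 genes did not overlap.

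Of the other transcription factors in the list, CEBPB had log2 signals of 4.67, 4.42 and 4.61 in VC and of 6.12, 6.68 and 6.05 in KO, a log2 fold change of 1.71 (SE 0.19, limma adjusted p = 0.00912). CEBPD, from the same family, rose by 0.69 (adjusted p = 0.0306). The AP-1 subunits JUN and FOS had log2 fold changes of 0.71 (adjusted p = 0.0107) and 0.72 (adjusted p = 0.0449). ATF4 and DDIT3, factors of the integrated stress response that can act on chemokine promoters with C/EBP partners, had log2 fold changes of 1.34 (adjusted p = 0.00815) and 4.34 (adjusted p = 0.00478). CEBPB, ATF4 and DDIT3 were thus raised by more than 2-fold, and CEBPD, JUN and FOS by less.

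Regulators of mRNA decay moved in both directions. ZC3H12A, an RNase that cleaves inflammatory mRNAs, rose by 1.23 (SE 0.17, limma adjusted p = 0.0112), and ZFP36L1, a decay factor that binds AU-rich elements, by 0.76 (SE 0.14, adjusted p = 0.0196), both as log2 fold changes. ZFP36L2, which also promotes decay, had a log2 fold change of -0.68 (SE 0.15, adjusted p = 0.0276), and ELAVL1, which stabilises AU-rich mRNAs, one of -0.44 (SE 0.13, adjusted p = 0.0482). The decay factors thus do not share a direction. The 4 genes of the whole regulator list that were not called, named after their values were seen, were REL, ZFP36, KHSRP and DPP4. Their log2 fold changes were 0.02, -0.12, -0.29 and 0.17. DPP4 is a regulator of neither transcription nor mRNA decay.

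With each library left out in turn, RELB, NFKB2, NFKBIA, NFKBIZ, TNFAIP3, CEBPB, JUN, ATF4, DDIT3 and ZC3H12A were called in all 6 fits. With the replicate block JUN and ZC3H12A were not called (adjusted p = 0.0537 and 0.0502). The rest of these genes were called with the block, each with a limma adjusted p of 0.0479, only just under the threshold. The other calls depended on the libraries. NFKB1 was not called without VC replicates 1, 2 or 3 or KO replicate 2 (highest adjusted p 0.0955), and RELA was called only without KO replicate 1 (highest 0.0971). FOS was called only without KO replicate 3 (highest 0.121), CEBPD only without VC replicate 2 (highest 0.0784) and ELAVL1 only without KO replicate 1 (highest 0.130). ZFP36L1 and ZFP36L2 were called only without KO replicate 1 or KO replicate 2 (highest 0.0642 and 0.0880).

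**Figure D4:**
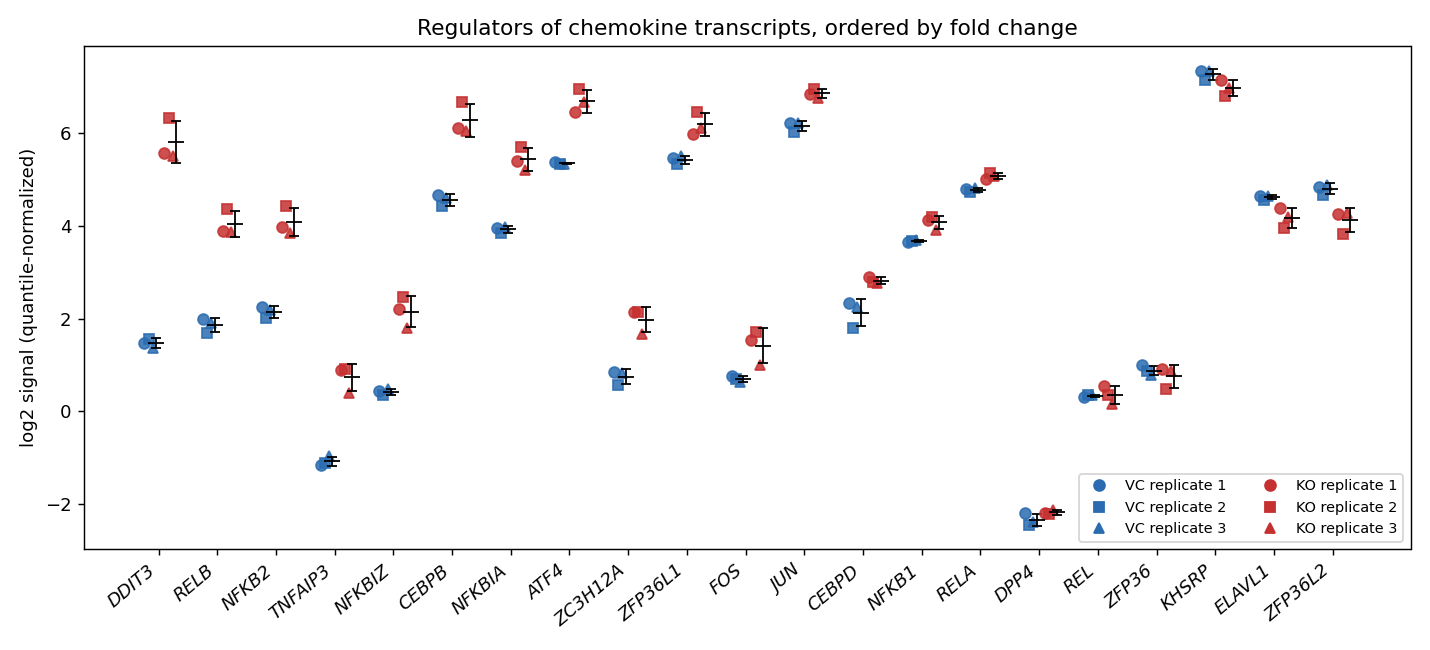
Log2 signal (quantile-normalized, vertical axis) of the 21 regulator genes in each VC library (blue) and KO library (red), ordered by log2 fold change, with black bars for the mean ± SD (n = 3). KO points lie above VC points from DDIT3, with a log2 fold change of 4.34, to RELA, with 0.30, and below them for ELAVL1 and ZFP36L2.

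The KO libraries did not contribute equally to the chemokine values. KO replicate 3 was the lowest of the 3 KO libraries for CXCL8, CXCL3, CXCL1 and CCL2, the 4 ligands among the 10 genes that were called higher. The same held for CXCL2, which was not called, and for CCL7, a called ligand outside the 10. It was the lowest for 12 of the 15 regulators called higher. Among the 2497 genes called higher that had 3 KO values, KO replicate 3 was the lowest for 28.7%, KO replicate 2 for 6.89% and KO replicate 1 for 64.4%. The chemokine ligands and the larger set thus differed in which KO library was lowest, and this difference was not tested. Leaving out KO replicate 3 raised the log2 fold change of CXCL8 to 3.07, of CCL2 to 2.52, of CXCL3 to 2.43 and of CXCL1 to 1.82. In the 6 fits that each left out 1 library the log2 fold change of CXCL8 was 2.39 to 3.07 and that of CXCL3 at most 2.43, and both genes were called in every one (highest adjusted p 0.0493 and 0.0440, each without VC replicate 3).

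**Figure D5:**
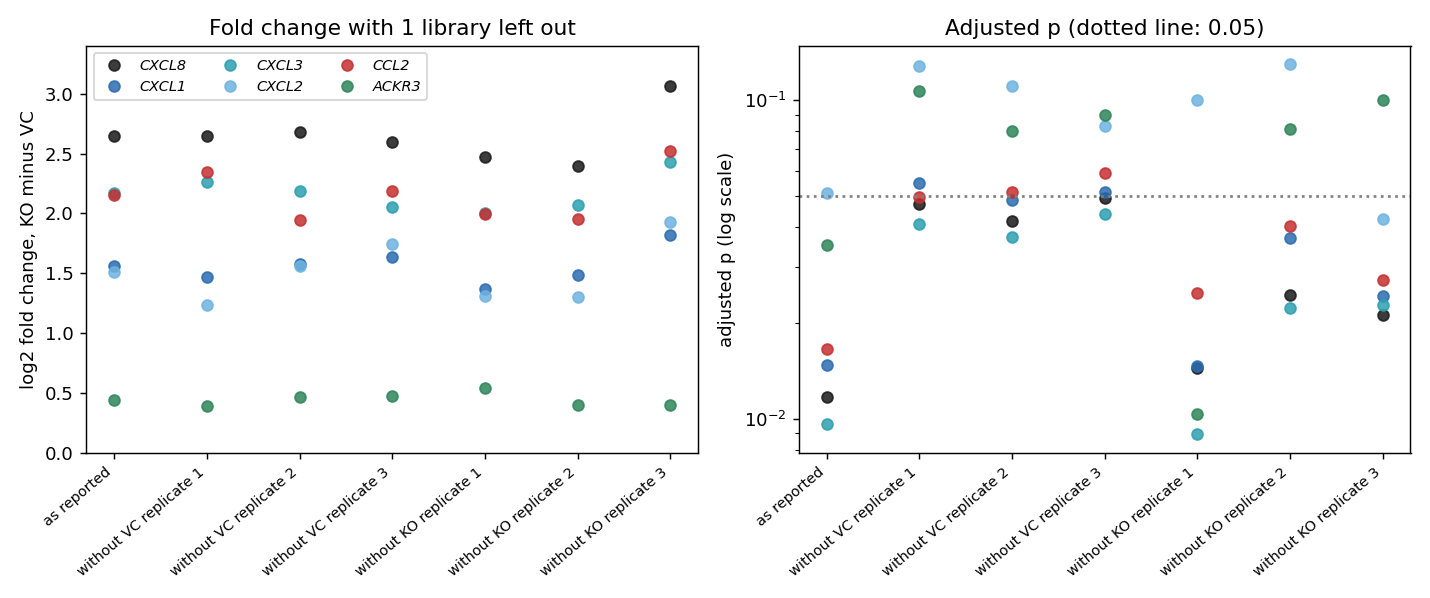
Log2 fold change (KO minus VC, left) and limma adjusted p on a log axis (right) for the 6 tested genes, as reported and with each of the 6 libraries left out. CXCL8 and CXCL3 stay under the dotted line at 0.05 in every fit, CXCL1 and CCL2 cross it without some VC libraries, CXCL2 is under it only without KO replicate 3, and ACKR3 is under it as reported and without KO replicate 1.

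Markers of other cell types were examined beside these values. The summed linear signal of 8 leukocyte markers was 21.8 to 23.1 in VC and 52.4 to 88.1 in KO. This sum was almost entirely CD68, a lysosomal protein abundant in macrophages and also made by other cells. CD68 rose by 1.66 (limma adjusted p = 0.00963) on the log2 scale, from a mean of 4.47 to 6.12. The other tested markers, PTPRC and LYZ, had log2 fold changes of -1.18 and -1.08 and were not called. The general leukocyte marker PTPRC was at -4.62 ± 0.19 in VC and -5.80 ± 1.39 in KO (SD, n = 3 each), MS4A1 and S100A8 had no value in any library, and CD14 and CD3E had low values in all 3 VC libraries (-4.58 to -3.80 and -6.30 to -3.29) and in 1 KO library each. The 4 endothelial markers summed to 0.0551 to 0.0883 in VC and 0.0561 to 0.109 in KO, so the ranges overlapped. Of 4 epithelial markers, which summed to 576 to 640 in VC and 553 to 608 in KO, KRT8 was called higher and EPCAM lower, and CDH1 had a value in 1 VC library. KRT18, which made up most of this sum, had a log2 fold change of -0.26 and was not called (limma adjusted p = 0.0853). The methods describe clonal cells of the osteosarcoma line, grown from sorted single cells, and name no other cell type in these cultures. The marker values are therefore read as expression by the line itself, and this reading was not tested.

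The label of an osteosarcoma line was compared with 9 osteoblast-lineage markers, whose summed signal was 102 to 106 in VC and 137 to 147 in KO. Among 7 tested, ALPL, COL1A1, SPARC and SPP1 were called higher and COL1A2 lower, beside 13.1% higher and 19.8% lower over all tested genes. SPARC made up most of the summed signal in each library, and SPARC and SPP1 gave most of its rise. SPARC had 6.50 ± 0.031 in VC and 6.87 ± 0.078 in KO, and COL1A1 had 2.34 ± 0.065 in VC (SD, n = 3 each). COL1A2 was low, at -4.81 ± 0.22 in VC and -5.62 ± 0.13 in KO, and ALPL had -1.27 ± 0.067 in VC (SD, n = 3 each). RUNX2 had values in every library, the osteoblast factor SP7 was low (-7.09 ± 0.81 in VC, SD, n = 2), and IBSP had no value in any library. BGLAP, a marker of mature osteoblasts, had no value in VC, had -2.84 in KO replicate 1 and -2.91 in KO replicate 2, and was not tested.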

How the data were processed

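The authors sequenced RNA from 143B cells on an Illumina NextSeq. The labels name a stranded mRNA kit, whereas the methods describe sequencing of total RNA. The submitters' processing notes name CASAVA, STAR, Partek and GRCh38.p13, and the methods name CLC software and Partek's suite. The deposited values are log2 signals, quantile-normalized between the 6 libraries by the authors. Their linear unit, the annotation and the depth are not given in the sources used here. The signals were used as deposited in R 4.3.3 with limma 3.58.1. Genes with at least 2 values per group were fitted with lmFit and eBayes without trend, two-sided, with Benjamini-Hochberg adjustment over all 19306. Libraries were grouped by their labels. The 10 genes and all lists were chosen with earlier results of these data known. Named genes were the 10, CNTNAP4, the called genes of the ligand, receptor and regulator lists, genes with too few values and the marker genes, and CXCR4, CCR6, REL, ZFP36, KHSRP and DPP4 were added after their values were seen. Gene positions and 50-base windows came from GENCODE release 29 (GRCh38) and promoters, given for 8 of the 10 genes, from RefSeq (GRCh38.p14). Promoters were aligned with Biopython 1.88. The fit was tested on simulated data. Alternatives were other gene filters, centring each library on the median of the genes with 6 values (median centring), and 1 added to the linear signal. Further ones were quantile normalization repeated, trend and robust moderation, no moderation, a replicate block, a 2-fold threshold and each library left out.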

Additional observations from a re-analysis of the deposited data

How the results depend on the processing

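The number of genes called was 6354 and became 1533 with a replicate block, 1840 with a 2-fold threshold and 1223 to 8669 with each library left out. Of the 10 genes, 5 were called as reported, 2 with the replicate block (CXCL8 and CXCL3), 2 among genes in the upper 50% of mean signal (where 2 were tested) and 2 to 5 with each library left out. Other ligands numbered 2 as reported, 1 with median centring, with trend and robust moderation, without moderation and with the replicate block, and 0 to 1 with each library left out. Other receptors numbered 1 as reported, 2 with trend and robust moderation and 1 to 2 with each library left out. No other ligand or receptor was tested in the upper 50%, so the count there was 0. Regulators numbered 17 as reported, 8 with the replicate block and 10 to 16 with each library left out. The median log2 fold change of the other ligands, 0.26, was -0.28 over genes with 6 values, -0.057 with the replicate block, -0.28 without KO replicate 1, and at most 0.43 with a library left out (without VC replicate 1). Of 80 values of the 6 tested genes under alternatives, 62 kept direction and call, 14 lost the call, 4 gained it and none turned direction. CXCL2 was called over genes with 6 values (adjusted p = 0.0440), with median centring (0.0443) and with trend and robust moderation (0.0198). ACKR3 was not called with trend and robust moderation (0.0576), without moderation (0.0557) or with the block (0.0583). With the block CXCL1 had an adjusted p of 0.0566 and CCL2 of 0.0537. CXCL8 and CXCL3 each had 0.0479 with the block, only just under the threshold. Replicate numbers did not pair the libraries (correlations of same-numbered deviations 0.023, 0.005 and -0.007), so the block removes degrees of freedom by construction. Adding 1 to the linear signal moved the median of all genes from -0.13 to -0.02 and that of the 6 tested genes from 1.86 to 1.14. Median centring used the genes with 6 values, because the medians over all values were already equal, and shifted libraries by -0.073 to 0.078. It moved the share of calls that were higher from 39.8% to 48.2%. The causes of these shifts were not tested, and unknown depth limits the low values.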
